A study of Mus musculus with 37 samples.

Results

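The renal vesicle, the first epithelium of the nephron, was compared with the ureteric bud, the epithelial tube that becomes the collecting system. Every array with one of these source names was taken, which gave 9 of the 37 arrays of a series on the developing mouse kidney. The 5 renal vesicle arrays are of embryonic day E12.5 (Theiler stage 20) and the 4 ureteric bud arrays of E11.5 (Theiler stage 19). All were of wild-type CD-1 mice whose sex is not given, and the labels name no treatment or transgene. Per the labels, each sample pooled about 50 laser-captured sections of 5 kidneys, its RNA was amplified in 2 rounds, and 1 Affymetrix array was hybridized. The titles of all 4 bud samples nevertheless name dissection (replicates 1, 2 and 4) or collagenase (replicate 3), while no vesicle title names a method. Component, day and the way in which the tissue was obtained therefore cannot be told apart between these groups. Whether pools of a group came from separate litters is not stated. The p-values rest on a spread within components that was estimated from all 37 arrays, not from the 9 alone. A gene that varies within another component can thus have a large p-value although vesicle and bud arrays do not overlap. Beside the vesicle and bud arrays stand the 4 arrays of S-shaped body and the 3 of ureteric tip, both of E15.5. They form a later pair of nephron and ureteric epithelium. The 8 arrays of metanephric mesenchyme of E11.5 stand beside them as well.

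Nephrons form by a change of mesenchyme into epithelium. Signals of the ureteric bud, Wnt9b among them, make progenitor cells beside its tips gather and turn into a hollow vesicle, a step that needs Wnt4, and the vesicle then elongates into the S-shaped body under Notch signalling. The bud has another history: it is epithelial from the start, grows out of the nephric duct toward Gdnf secreted by the mesenchyme, receives that signal through the receptor Ret, and branches into the collecting ducts.

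Levels are log2 of the signal after an offset and quantile normalization, so 1 unit is a doubling, and a difference is given as vesicle minus bud with its standard error (SE). The words called, higher and lower are used of genes with an adjusted p under 0.05 in limma and a log2 difference of 1 or more in either direction. Of 15709 genes, 1752 (11.2%) were called, 608 higher in the vesicle (3.87%) and 1144 lower (7.28%). Counts of list members given below are to be read against these shares. The arrays of the 2 groups did not overlap in 2952 genes (18.8%), with every vesicle array above every bud array in 1139 of them (7.25% of all genes). The median difference over all genes was -0.07, and it moved by 0.11 when the arrays were left as scaled by the authors. The vesicle arrays were less alike (Pearson's r across genes 0.813 to 0.921 between arrays, median SD of a gene 0.674) than the bud arrays (0.963 to 0.979, median SD 0.312). Correlations between a vesicle and a bud array were 0.788 to 0.909. Vesicle replicate 2 had a higher median correlation with the bud arrays (0.906) than with its own group (0.889). Among all arrays of the series, the one most correlated with it was mesenchyme replicate 2. The log2 ratio of the 5' to the 3' Gapdh control probe set, a measure of how far the amplified RNA reached, was -6.45 to -3.64 in the vesicle arrays and -3.61 to -2.71 in the bud arrays, which do not overlap. Because this ratio and the collection method moved with the groups, 2 further models are cited where they ended the call of a named gene: one with the Gapdh ratio as a covariate, and one with a term for dissection or collagenase in the title, whose size rests on the mesenchyme arrays alone. Their part in the differences beyond this was not tested.

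**Figure D1:**
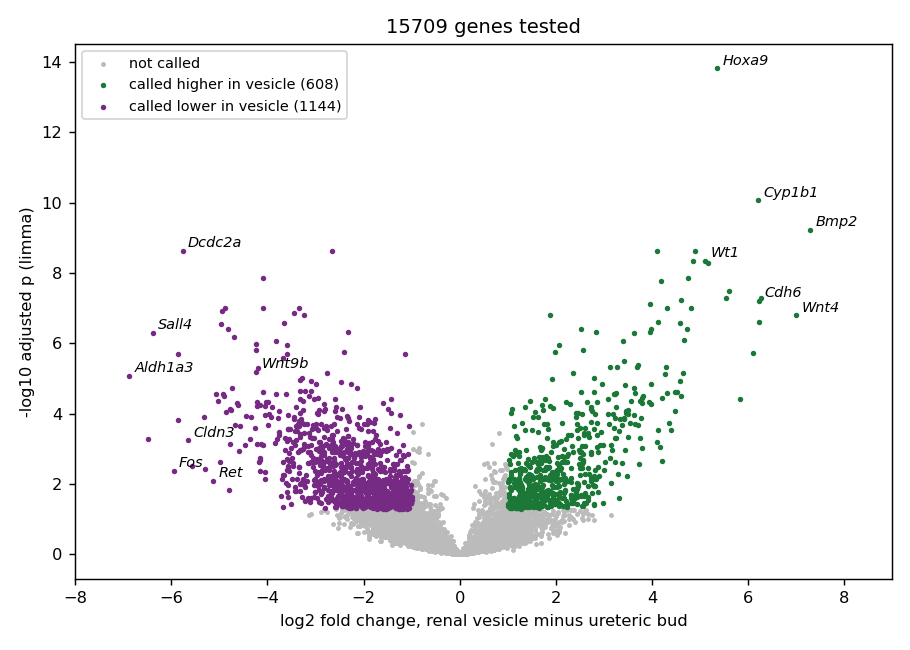
Difference of each of 15709 genes between 5 renal vesicle and 4 ureteric bud arrays (log2, x axis) against -log10 of the adjusted p of limma (y axis). Green points are the 608 genes called higher in the vesicle, purple points the 1144 called lower, and Hoxa9, Cyp1b1 and Bmp2 lie at the top right.

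Most genes chosen as defining markers differed in the direction of the labels. Members were chosen with earlier results of these data known, so this is not an independent check of the labels. Several of these calls were lost in the 2 further models, as given below. Of 8 genes chosen to define the vesicle, Wnt4, Bmp2, Dll1, Fgf8, Jag1 and Pax8 were called higher there, while Lhx1 and Ccnd1 were not called. Of 8 genes chosen to define the bud, Ret, Calb1, Wnt9b, Wnt11, Gata3, Cdh16 and Krt8 were called lower in the vesicle. The remaining one, Hoxb7, was not among the called genes. Vesicle replicates 2 and 3 were nevertheless high in some bud transcripts: Calb1, a calcium-binding protein of ureteric epithelium, stood at 15.54 and 12.68 in them, against 9.39 to 11.04 in the other vesicle arrays. Summed signal of genes of bud and nephric duct identity was 86050 and 59001 in them, against 26485 to 50356 in the others. This did not hold for all bud genes, since replicate 3 had the lowest vesicle sums of keratin and epithelial surface genes (94016) and of tight junction genes (63913). Replicate 3 was in addition high in the macrophage receptor Csf1r (13.94) and in the collagen Col3a1 (16.01). Leaving out both arrays gave 1504 called genes, of which 1232 were among the 1752.

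**Figure D2:**
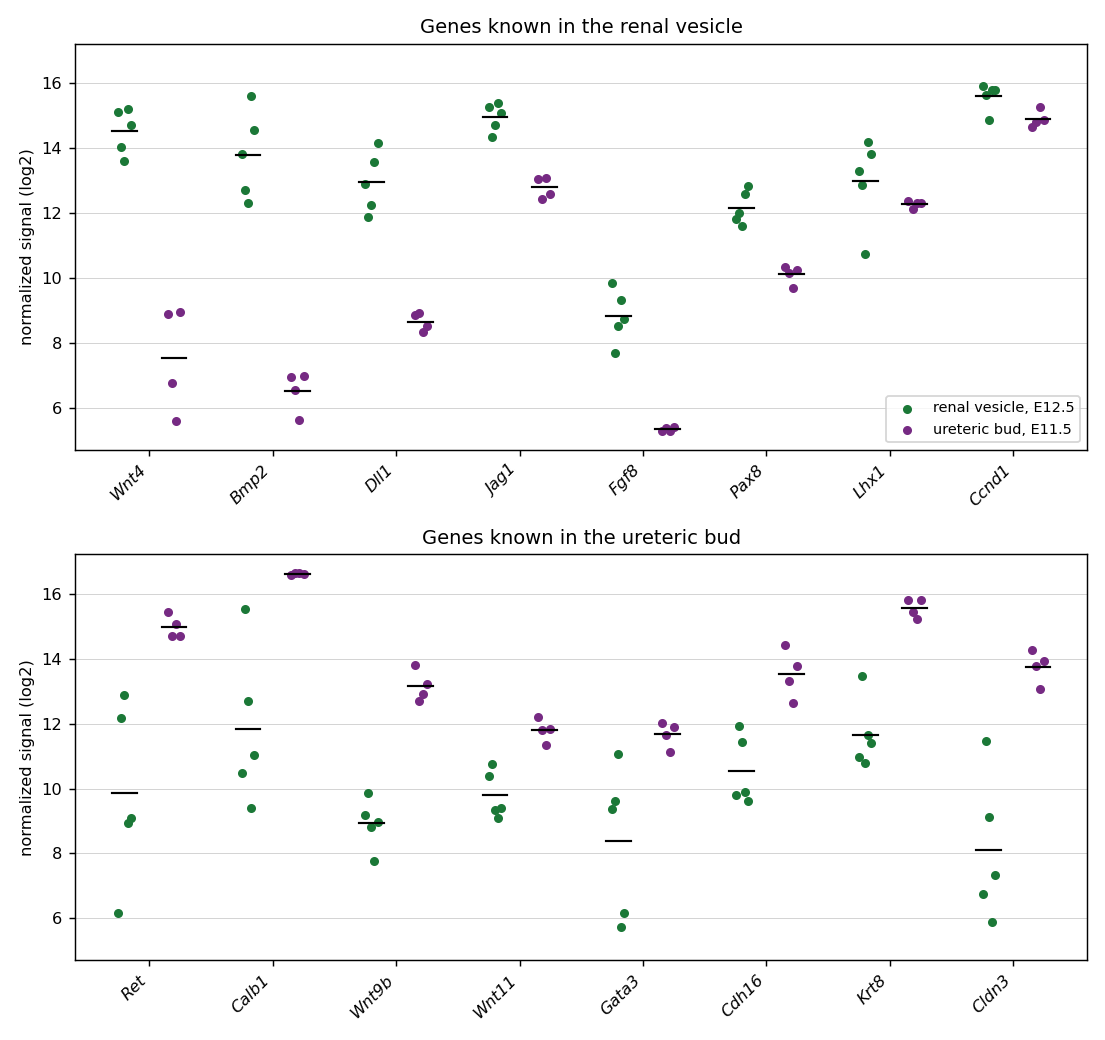
Normalized level (log2, y axis) of genes known in the renal vesicle (upper panel) and in the ureteric bud (lower panel). Each point is an array, 5 of renal vesicle in green and 4 of ureteric bud in purple, and bars are means. Wnt4 and Bmp2 lie above 12 in every vesicle array and below 9 in every bud array, and Ret and Calb1 are spread over more than 5 units among the vesicle arrays.

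Genes known in the renal vesicle, several of them with roles in nephron induction, were listed with earlier results of these data known, so their count is not independent evidence of a direction. Of 25 measured, 15 were higher and none lower, with a median difference of 2.45, and with the collection term 9 were called higher. Bmp2, a secreted growth factor, had levels of 13.84, 12.71, 12.31, 15.60 and 14.58 in the vesicle arrays, against 6.95, 6.55, 5.63 and 6.98 in the bud arrays. No array of either group came within 5 units of the other group, and the difference was 7.28 (SE 0.62, adjusted p = 5.84e-10). Wnt4, the signal required for the vesicle to form, had levels of 15.11, 14.04, 13.61, 15.21 and 14.72 in the vesicle, against 8.88, 6.75, 5.59 and 8.97 in the bud. The groups did not overlap, and the difference was 6.99 (SE 0.81, adjusted p = 1.56e-07). In mesenchyme both genes lay between: Wnt4 had a lowest, median and highest level of 10.20, 10.81 and 12.04, and Bmp2 of 8.72, 9.67 and 10.90.

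Several vesicle genes encode products outside the classic signals. Clec18a, a C-type lectin, averaged 12.94 ± 0.85 in the vesicle and 6.66 ± 1.05 in the bud (SD, n = 5 and 4; difference 6.27, SE 0.68, adjusted p = 5.24e-08). Papss2, which makes the sulfate donor for proteoglycans, was at 10.88 to 13.61, against 5.46 to 7.59 (6.10, SE 0.81, adjusted p = 1.92e-06). Uncx, a homeobox transcription factor, was at 11.72 to 12.78 in the vesicle, against 5.54 to 7.80 in the bud (5.82, SE 0.92, adjusted p = 3.91e-05). In all 3 genes every vesicle array lay above every bud array. Npy, a neuropeptide, and Tmem100, a membrane protein, differed by less, 3.49 and 2.67.

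Genes outside the lists belonged to the largest differences too. Oxtr, the oxytocin receptor, had 13.70, 12.43, 12.39, 14.02 and 13.74 in the vesicle, against 7.56, 5.87, 7.71 and 6.95 in the bud (difference 6.23, SE 0.74, adjusted p = 2.52e-07). Cyp1b1, a cytochrome P450 that oxidizes retinol and steroids, averaged 12.94 ± 0.42 in the vesicle and 6.72 ± 0.60 in the bud (SD; difference 6.21, SE 0.49, adjusted p = 8.55e-11). Car4, a membrane-anchored carbonic anhydrase, was at 12.40 to 13.56 in the vesicle, against 6.94 to 8.13 in the bud (5.53, SE 0.59, adjusted p = 4.97e-08). None of the 3 overlapped between groups.

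Of the remaining classic vesicle genes Fgf8 and Pax8 were called higher, and Lhx1 and Ccnd1 were not called. Fgf8, a growth factor that keeps early nephron cells alive, was at 7.69 to 9.84 in the vesicle, against 5.28 to 5.41 in the bud, where all 4 arrays lay near the lowest level that the scale allows (5.11). Pax8, a transcription factor of nephric lineages, averaged 12.17 ± 0.53 in the vesicle and 10.11 ± 0.28 in the bud (SD, n = 5 and 4), a difference of 2.06. Lhx1, a transcription factor needed in both epithelia, had 13.29, 12.87, 10.75, 14.19 and 13.83 in the vesicle, against 12.37, 12.14, 12.32 and 12.30 in the bud. Replicate 3 alone lay below the bud arrays, and the difference of 0.70 had a 95% interval of -1.69 to 3.09. Ccnd1, a cyclin, was high in both (means 15.60 and 14.91 in vesicle and bud) with an interval of -0.16 to 1.55. The calls of Fgf8 and Pax8 were lost with the collection term (adjusted p = 0.308 and 0.1) and with the Gapdh covariate (0.147 and 0.0846), and those of Npy and Tmem100 with the collection term (0.054 and 0.0854).

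Of 22 measured genes of the Notch pathway 6 were higher in the vesicle, 16 were not called and none was lower, with a median of 0.35. The collection term left 3 calls. Dll1, a ligand, had 12.91, 11.90, 12.25, 13.58 and 14.17 in the vesicle, against 8.85, 8.92, 8.34 and 8.53 in the bud, without overlap (difference 4.30, SE 0.66, adjusted p = 2.5e-05). Jag1, a second ligand, was abundant in both, at 14.36 to 15.40 in the vesicle and 12.44 to 13.09 in the bud (2.17, SE 0.47, adjusted p = 0.00173). Notch2, a receptor, differed by 2.22 (SE 0.36, adjusted p = 4.59e-05). Among targets, Hey1 had 14.50, 13.91, 13.54, 13.72 and 14.35 in the vesicle, against 9.42, 10.51, 11.08 and 10.45 in the bud (3.64, SE 0.56, adjusted p = 2.64e-05). Heyl, its relative, was at 9.64 to 11.60 in the vesicle, against 6.55 to 7.84 in the bud (3.63, SE 0.54, adjusted p = 1.83e-05).

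Other targets were called narrowly or not at all. Hes5, a repressor induced by Notch, had 11.01, 9.16, 10.02, 10.75 and 10.61 in the vesicle, against 7.91, 8.49, 7.21 and 7.84 in the bud (2.45, SE 0.80, adjusted p = 0.0374). Hes1 was at 10.84 to 12.08 in the vesicle and 11.23 to 12.10 in the bud, with an interval of the difference of -1.13 to 0.79. Nrarp, a feedback inhibitor of Notch, was at 11.13 to 13.09 in the vesicle and 11.58 to 12.40 in the bud, with an interval of -0.50 to 1.36. The call of Hes5 was lost on leaving out any single array other than vesicle replicate 2 (differences of 2.23 to 2.66, adjusted p = 0.0502 to 0.115) and in both further models (2.84 with adjusted p = 0.208 for collection, 1.64 with 0.42 for Gapdh). Jag1 and Notch2 lost theirs with the collection term (adjusted p = 0.276 and 0.0818), Jag1 also with the covariate (0.0663), and Notch2 with another of its probe sets (1.10, adjusted p = 0.144).

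The windows of 250 bases before the start of one called and one uncalled Notch target are shown to set their sequences side by side. They are from RefSeq on GRCm38.p6, plus strand, at chr4:154960673-154960922 for Hes5 and chr2:25180508-25180757 for Nrarp. Capitals mark TGGGAA or its reverse complement TTCCCA, the core bound by Rbpj, the DNA-binding partner of Notch.
Hes5: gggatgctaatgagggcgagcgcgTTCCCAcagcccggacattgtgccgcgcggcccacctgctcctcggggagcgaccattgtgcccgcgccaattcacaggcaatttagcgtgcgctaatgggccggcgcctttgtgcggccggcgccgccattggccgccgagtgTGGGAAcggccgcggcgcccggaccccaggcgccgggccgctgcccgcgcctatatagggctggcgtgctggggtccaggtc
Nrarp: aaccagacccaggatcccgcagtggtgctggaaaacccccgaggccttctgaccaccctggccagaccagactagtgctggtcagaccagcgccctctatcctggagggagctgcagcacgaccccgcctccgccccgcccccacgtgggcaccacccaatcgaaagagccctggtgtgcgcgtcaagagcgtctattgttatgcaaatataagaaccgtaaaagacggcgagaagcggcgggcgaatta
The Hes5 window holds 2 matches, one on each strand, 226 to 221 and 82 to 77 bases before the start, and the Nrarp window holds 0. Of 32851 such windows of 27025 genes, 21.6% held at least 1 match and 2.77% held 2 or more. A match is a description of the letters and not a site shown to be bound. The set of windows had none for Hes1, Hey1 and Heyl, so Hes5 and Nrarp were shown because theirs were available.

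A second large group higher in the vesicle consisted of genes of the mesenchyme from which it forms. Of 20 measured nephron progenitor genes 9 were higher and none lower, with a median of 1.85, and with the Gapdh covariate 5 were called. Sall1, a zinc finger factor required for kidney outgrowth, had 13.55, 13.21, 12.25, 13.01 and 12.79 in the vesicle, against 8.25, 6.79, 7.71 and 6.70 in the bud (difference 5.60, SE 0.59, adjusted p = 3.23e-08). Its lowest, median and highest levels in mesenchyme were 11.95, 12.02 and 12.75. Wt1, the Wilms tumour suppressor, had 12.58, 12.93, 12.51, 11.83 and 13.04 in the vesicle, against 7.55, 7.05, 7.68 and 7.65 in the bud (5.10, SE 0.49, adjusted p = 4.4e-09), with 11.32, 11.85 and 12.48 in mesenchyme. Itga8, the integrin that receives nephronectin, had 12.63, 12.81, 13.01, 13.49 and 12.70 in the vesicle, against 8.10, 8.04, 7.85 and 8.12 in the bud (4.90, SE 0.45, adjusted p = 2.34e-09), with 11.86, 12.92 and 13.25 in mesenchyme. For these 3 genes the vesicle arrays overlapped or lay above the mesenchyme arrays and lay apart from the bud arrays.

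Other progenitor genes had lower levels in the vesicle arrays than in mesenchyme. Six2, which holds progenitors in an undifferentiated state, was at 9.74 to 10.22 in the vesicle and 9.12 to 9.81 in the bud, against 11.32, 13.46 and 14.98 (lowest, median, highest) in mesenchyme. Its vesicle to bud difference of 0.53 was not called (interval -0.93 to 1.98). Meox1, another gene of uninduced mesenchyme, was at 6.93 to 9.79 in the vesicle and 5.99 to 8.18 in the bud, against 10.91, 11.96 and 12.69 in mesenchyme. Every vesicle array lay below every mesenchyme array for both. Eya1, a cofactor of homeobox proteins, lay at 11.77 to 13.96 in the vesicle, against 8.01 to 9.38 in the bud, with 13.12, 13.88 and 14.89 in mesenchyme (difference 4.21, SE 0.94, adjusted p = 0.00215). Rspo1, a Wnt agonist, differed by 3.49 (SE 0.60, adjusted p = 9.99e-05). Gdnf, the ligand of Ret, was at 10.69 to 11.66 in the vesicle, against 7.15 to 8.95 in the bud, with an uncalled difference of 3.14 (SE 1.17, adjusted p = 0.0736). It was called with the arrays as scaled by the authors (3.59, adjusted p = 0.0324), with array weights (3.44, 0.00449) and with only the arrays compared (3.14, 0.000859). Cited1 was not called (interval -3.00 to 0.71). Eya1 lost its call with the collection term (4.5, adjusted p = 0.0676) and with the Gapdh covariate (2.55, adjusted p = 0.209), and Six2 gained one with the collection term (3.04, adjusted p = 0.0478).

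Hox genes, which mark position along the body axis, were called in both directions. Of 27 measured, 10 were higher in the vesicle and 3 lower. Hoxa9 had 15.15, 14.89, 15.12, 15.79 and 14.93 in the vesicle, against 9.59, 9.94, 10.66 and 9.10 in the bud (difference 5.36, SE 0.31, adjusted p = 1.49e-14). Hoxd10 had 12.71, 12.98, 13.45, 13.39 and 13.07 in the vesicle, against 7.82, 7.77, 9.21 and 8.27 in the bud (4.85, SE 0.46, adjusted p = 4.4e-09). In both genes the mesenchyme arrays were near the vesicle's, with lowest, median and highest levels of 14.60, 14.98 and 15.49 for Hoxa9 and 13.54, 13.73 and 14.75 for Hoxd10. Hoxc8, Hoxa10, Hoxd11 and Hoxa11 were higher as well, by 4.20, 4.09, 2.79 and 1.41, and the other called ones were Hoxa5, Hoxc5, Hoxc9 and Hoxc10. The 3 that were lower all belong to the Hoxd cluster. Hoxd1 had 5.23, 7.50, 7.78, 7.93 and 6.95 in the vesicle, against 10.87, 10.84, 11.69 and 10.87 in the bud (-3.99, SE 0.72, adjusted p = 0.000206). Hoxd8 and Hoxd3 differed by -2.44 and -1.83 (SE 0.41 and 0.43). Hoxa10 lost its call with another probe set (2.55, adjusted p = 0.0513), and Hoxa11 with the collection term (adjusted p = 0.0578) and the Gapdh covariate (0.0756).

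Other transcription factors also divided the epithelia. Nr2f1, an orphan nuclear receptor, was at 11.72 to 12.57 in the vesicle, against 5.78 to 8.34 in the bud (5.17, SE 0.50, adjusted p = 5.19e-09), and its mesenchyme levels were 11.36 to 12.92. Meis2 and Meis1, homeobox partners of Hox proteins, differed by 3.95 and 3.44 (SE 0.43 and 0.51). Sall4, the relative of Sall1 that sustains embryonic stem cells, ran the other way, with 5.74, 6.79, 6.66, 5.35 and 9.43 in the vesicle, against 12.94, 12.99, 13.70 and 13.09 in the bud (-6.39, SE 0.79, adjusted p = 4.98e-07). No vesicle array came within 3 units of the bud arrays for Sall4.

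**Figure D3:**
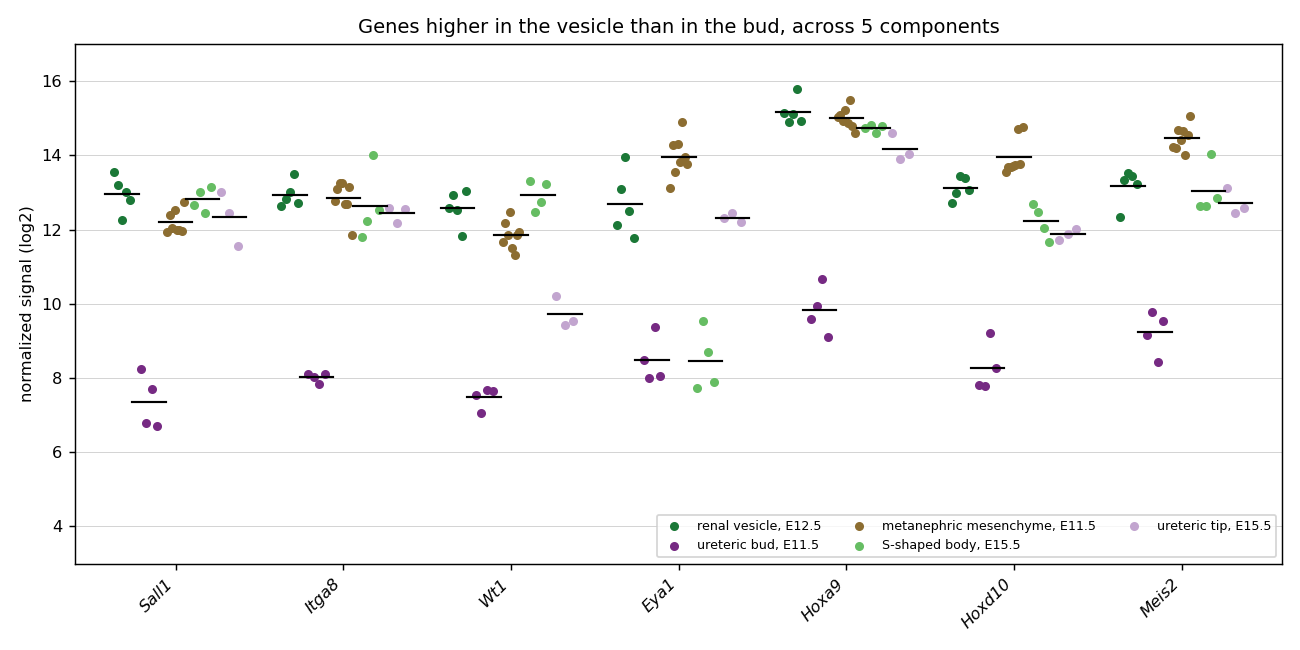
Normalized level (log2, y axis) of 7 genes in 5 components, each point an array and each bar a mean: renal vesicle (n = 5), ureteric bud (n = 4), metanephric mesenchyme (n = 8), S-shaped body (n = 4) and ureteric tip (n = 3). The bud arrays lie lowest for 6 of them, and for Eya1 they share the low range with the S-shaped body.

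Stromal genes were part of the vesicle profile. Of 30 measured genes of stroma and mesenchyme 15 were higher and none lower, with a median of 2.07. Their summed signal was 75325 to 331678 in the vesicle arrays, against 33343 to 45421 in the bud arrays and 265444 to 466165 in mesenchyme. Only vesicle replicate 3 reached the mesenchyme range, and the other vesicle arrays had at most 130716. Fewer cells of a type and less RNA per cell cannot be told apart in such pools. Col3a1, a fibrillar collagen, had 11.05, 14.43, 16.01, 11.90 and 13.09 in the vesicle, against 9.43, 10.10, 11.14 and 10.13 in the bud (difference 3.10, SE 0.56, adjusted p = 0.0002). Vesicle replicate 1 lay within the range of the bud arrays. Foxd1, the factor of stromal progenitors, had 12.54, 12.51, 11.87, 10.06 and 8.71 in the vesicle, against 6.61, 7.50, 8.11 and 7.41 in the bud (3.73, SE 0.85, adjusted p = 0.00273). Foxc2 and Foxc1, forkhead factors of kidney mesenchyme, differed by 4.6 and 3.43. Pdgfra, a stromal growth factor receptor, differed by 2.54 (SE 0.58, adjusted p = 0.00274). Without vesicle replicates 2 and 3, 10 of the 30 genes were called higher, Col3a1 differed by 1.81 (adjusted p = 0.00543) and Pdgfra was not called (1.78, adjusted p = 0.0613). With the collection term 5 of the 30 were called, and Foxd1, Foxc1, Pdgfra and Col3a1 were not (adjusted p = 0.0548 to 0.0926), and Col3a1 was not called on another probe set (1.77, adjusted p = 0.17). With the Gapdh covariate 9 were called, and Foxd1 and Foxc1 were not (0.0746 and 0.066).

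Markers of other cells were counted for the same reason. Macrophage genes had a summed signal of 1586 to 26756 in the vesicle arrays, against 1115 to 1589 in the bud arrays. The highest value was that of vesicle replicate 3, and the other vesicle arrays reached at most 4304. Of 12 macrophage genes 2, the complement genes C1qa and C1qc, were called higher, 5 without vesicle replicate 4, and 1 without vesicle replicate 1 or 3 or any one bud array. Csf1r had 10.53, 9.22, 13.94, 7.96 and 8.54 in the vesicle, against 7.45, 7.59, 7.77 and 7.90 in the bud, a difference of 2.36 that was not called (adjusted p = 0.0987; 2.88 and 0.0485 without vesicle replicate 4). C1qa differed by 2.67 (adjusted p = 0.0276) and lost its call without vesicle replicate 1 or 3 or without any one of the bud arrays (differences of 2.20 to 2.75, adjusted p = 0.0527 to 0.095), without vesicle replicates 2 and 3 together (2.38, 0.111) and with the Gapdh covariate (3.11, 0.0814), and with the collection term its difference was -0.55 (adjusted p = 0.833). Embryonic beta globin Hbb-y, of red cells, was at 15.93 to 16.74 in the vesicle, against 12.87 to 15.39 in the bud (1.91, SE 0.48, adjusted p = 0.00692), and its call was lost without bud replicate 1 (1.38, adjusted p = 0.0671), with the collection term (1.59, adjusted p = 0.254) and on another probe set (2.36, adjusted p = 0.109). Summed erythroid signal was 50783 to 155062 in the vesicle and 8976 to 38797 in the bud, and summed endothelial signal 13021 to 27469 and 3070 to 7315. Such sums rest mostly on the brightest members, and the mean log2 levels of both lists overlapped between the groups. They were 8.525 to 9.562 in the vesicle and 8.09 to 9.357 in the bud for erythroid genes, and 8.08 to 10.11 and 8.05 to 9.013 for endothelial genes. Of 15 endothelial genes only Cldn5 was called, where 11.2% of all genes were. The part of these cells in the differences was not tested.

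Genes of the bud's identity and of its Ret signalling were among those lower in the vesicle. Of 21 measured genes of bud and nephric duct identity 12 were lower and none higher, with a median of -1.77, and of 17 genes of the Ret pathway 7 were lower and none higher, with a median of -1.88. The identity list had 7 calls with the Gapdh covariate, and the Ret list had 4 without vesicle replicate 3 or without bud replicate 3. Ret, the receptor tyrosine kinase of the bud tip, had 6.18, 12.17, 12.89, 8.94 and 9.11 in the vesicle, against 15.45, 14.69, 15.06 and 14.71 in the bud (difference -5.12, SE 1.32, adjusted p = 0.00811). Vesicle replicates 2 and 3 were the highest of their group and still below all bud arrays. Without them the difference was -6.91 (adjusted p = 0.00103). Wnt9b, the inducing signal of the bud, had 9.19, 9.87, 8.81, 7.77 and 8.98 in the vesicle, against 13.81, 12.71, 12.91 and 13.22 in the bud (-4.24, SE 0.60, adjusted p = 6.38e-06). Calb1 had 10.48, 15.54, 12.68, 9.39 and 11.04 in the vesicle, against 16.58, 16.64, 16.64 and 16.61 in the bud, so that vesicle replicate 2 came within about 1 unit of the bud arrays (-4.79, SE 1.34, adjusted p = 0.0148). Its difference without replicates 2 and 3 was -6.31 (adjusted p = 0.00342).

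The other members of the Ret pathway gave a mixed count. Spry1, an inhibitor that limits Ret signalling, was at 11.43 to 12.55 in the vesicle, against 14.18 to 14.75 in the bud (-2.46, SE 0.36, adjusted p = 1.26e-05). Dusp6, an Erk phosphatase, and Wnt11, a ligand of bud tips, differed by -2.27 and -2.01 (SE 0.49 and 0.52). Gfra1, the co-receptor of Ret, was at 11.82 to 13.65 in the vesicle and 14.61 to 15.23 in the bud, yet narrowly missed the threshold (-2.35, SE 0.82, adjusted p = 0.0549). It was called without vesicle replicate 2 (-2.62, adjusted p = 0.0406), with the larger offset (-2.34, 0.0462) and with the stricter filter (-2.35, 0.0462). Calls were also made on the probe set with the largest variance (-3.67, adjusted p = 0.0032) and with array weights (-2.33, 0.00233). Etv4 and Etv5, transcription factors downstream of Ret, were not called either, with differences of -1.81 and -1.67 (adjusted p = 0.11 and 0.407), and Spry2 had an interval of -1.34 to 0.66. Gata3, a transcription factor of the nephric duct, had 9.36, 9.61, 11.07, 5.74 and 6.18 in the vesicle, against 12.03, 11.64, 11.13 and 11.89 in the bud (-3.28, SE 0.98, adjusted p = 0.0231). Its call was lost without vesicle replicate 4 or 5 or bud replicate 1, 2 or 4 (-3.29 to -2.62, adjusted p = 0.0502 to 0.0842), and Emx2, a homeobox factor of the bud, was not called (-1.77, adjusted p = 0.147; -4.14 and 0.0161 with the collection term). With the collection term the list kept 2 calls, Dusp6 and Wnt11 losing theirs (adjusted p = 0.569 and 0.148), and with the Gapdh covariate it kept 4, with Wnt11 (0.267) among those lost, as were Calb1 and Gata3 of the identity list (0.352 and 0.248).

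Several of the largest differences concerned genes less often named in the bud. Vsnl1, a neuronal calcium sensor, had 5.45, 10.08, 5.85, 5.41 and 5.75 in the vesicle, against 12.28, 12.25, 12.56 and 12.40 in the bud (difference -5.86, SE 0.78, adjusted p = 2.05e-06). Only replicate 2 stood above the low range, and without replicates 2 and 3 the difference was -6.84. Mal, a protein of apical membrane sorting, was at 5.59 to 10.72 in the vesicle, against 12.91 to 13.73 in the bud (-5.33, SE 0.93, adjusted p = 0.000127). Slc2a3, a glucose transporter, was at 7.70 to 11.18 in the vesicle, against 13.99 to 14.76 in the bud (-5.07, SE 0.78, adjusted p = 2.8e-05). Tfcp2l1, a factor of later collecting duct cells, differed by -3.81 (SE 0.74, adjusted p = 0.00053).

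Genes linked to cystic disease and cilia included some of the same size. Pkhd1, whose loss causes recessive polycystic kidney disease, had 6.26, 9.28, 6.73, 6.49 and 5.24 in the vesicle, against 13.06, 12.48, 12.43 and 12.63 in the bud (-5.85, SE 1.03, adjusted p = 0.000152). Dcdc2a, a microtubule-binding doublecortin protein found at cilia, had 7.02, 9.96, 6.78, 8.41 and 7.59 in the vesicle, against 13.95, 13.28, 13.72 and 13.93 in the bud (-5.77, SE 0.53, adjusted p = 2.34e-09). Neither overlapped. Of 11 measured genes of polycystic disease and cilia, however, 3 were lower (Pkhd1, Bicc1 and Glis2) and 8 were not called, with a median of -0.61, and 1 was called with the collection term.

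Of 23 regulators of epithelial state 13 were lower and 2 higher, of 27 tight junction genes 11 were lower and 1 higher, and of 23 keratins and epithelial surface genes 11 were lower and none higher, with medians of -1.89, -1.46 and -1.76. The keratin and surface list had 7 calls without vesicle replicate 3 or bud replicate 1 and 4 with the Gapdh covariate, and the tight junction list 7 with the collection term. Esrp1, which directs epithelial splicing, had 9.82, 12.46, 8.11, 8.79 and 6.89 in the vesicle, against 14.97, 14.43, 15.13 and 14.58 in the bud (difference -5.56, SE 1.29, adjusted p = 0.00306). Grhl2, an activator of junction genes, had 8.43, 10.05, 8.90, 5.94 and 7.99 in the vesicle, against 12.80, 12.21, 12.44 and 12.49 in the bud (-4.22, SE 0.68, adjusted p = 4.59e-05). Its relative Grhl1 was one of the 2 higher members, at 10.60 to 11.92 in the vesicle, against 7.46 to 8.74 in the bud (2.88, SE 0.67, adjusted p = 0.00331), and Grhl3 was the other. Ovol2, a repressor of mesenchymal genes, Tfap2a and Tfap2b, AP-2 factors, and Rab25, a recycling GTPase of epithelia, differed by -3.33, -3.50, -3.57 and -4.06.

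Claudins, which set the tightness of the junction, divided by member. Cldn3 had 6.76, 11.46, 9.13, 5.88 and 7.32 in the vesicle, against 14.26, 13.78, 13.05 and 13.94 in the bud (-5.65, SE 1.11, adjusted p = 0.000568). Cldn8, a claudin of the collecting duct, was at 7.58 to 9.70 in the vesicle, against 12.70 to 13.56 in the bud (-4.66, SE 0.84, adjusted p = 0.000203). Cldn4, Cldn7 and Cldn6 differed by -4.16, -3.57 and -3.09. Cldn5, best known from endothelium, was the exception, with 13.20, 13.35, 13.16, 12.97 and 13.32 in the vesicle, against 9.09, 10.19, 8.93 and 9.86 in the bud (3.68, SE 0.51, adjusted p = 4.56e-06). Ocln and Cgn, which encode occludin and the junction adaptor cingulin, were lower, with differences of -4.78 and -3.82 (SE 0.96 and 0.48). Among keratins, Krt8 had 10.96, 13.45, 10.78, 11.66 and 11.39 in the vesicle, against 15.80, 15.44, 15.22 and 15.80 in the bud (-3.92, SE 0.68, adjusted p = 0.000124), and Krt7 and Krt18 differed by -3.26 and -2.81. Epcam, an adhesion molecule of epithelia, averaged 12.96 ± 0.63 in the vesicle and 15.34 ± 0.17 in the bud (SD; difference -2.39, SE 0.76, adjusted p = 0.0329). The Epcam call was lost on leaving out any array other than vesicle replicate 2 or 5 (-2.45 to -2.20, adjusted p = 0.0551 to 0.0793), without vesicle replicates 2 and 3 together (-2.46, adjusted p = 0.0663) and with arrays as scaled by the authors (-2.09, adjusted p = 0.0757). With the Gapdh covariate Esrp1, Tfap2b, Cldn6, Cldn7, Krt7, Krt18 and Epcam were not called (adjusted p = 0.0599 to 0.238), and with the collection term Grhl1 was not (1.69, adjusted p = 0.393).

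Cadherins were called in both directions, with 4 of 19 higher, 3 lower and a median of 0.06. Cdh6, a cadherin of early nephron epithelium, had 12.45, 12.77, 13.40, 13.89 and 13.76 in the vesicle, against 7.99, 5.75, 7.4 and 7.0 in the bud (6.22, SE 0.68, adjusted p = 6.12e-08). Cdh4, also a vesicle cadherin, was at 11.11 to 13.18 in the vesicle, against 8.38 to 9.21 in the bud (3.39, SE 0.43, adjusted p = 8.71e-07). Fat4, a giant protocadherin, and Cdh11, a mesenchymal cadherin, differed by 3.94 and 3.75 (SE 0.63 and 0.60). Cdh16, the kidney-specific cadherin, was lower, at 9.62 to 11.93 in the vesicle, against 12.63 to 14.43 in the bud (-3.01, SE 0.81, adjusted p = 0.0109). E-cadherin, Cdh1, had 11.89, 11.16, 11.46, 12.75 and 12.51 in the vesicle, against 13.63, 12.68, 12.46 and 12.99 in the bud, so that replicates 4 and 5 lay within or near the bud range and the difference was not called (-0.99, interval -2.46 to 0.49). N-cadherin, Cdh2, was at 11.76 to 12.56 in the vesicle, against 9.38 to 10.02 in the bud, and just missed the threshold (2.62, SE 0.91, adjusted p = 0.0529), which it passed with the arrays as scaled by the authors (2.89, adjusted p = 0.0205). Vim, vimentin of mesenchymal cells, was not called (0.18, interval -0.71 to 1.07), but was on another probe set (1.46, adjusted p = 0.0454). Cdh1 was called lower with the collection term (-4.28, adjusted p = 0.000379), while Cdh11 lost its call there (0.0598) and Cdh16 with the Gapdh covariate (0.196).

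**Figure D4:**
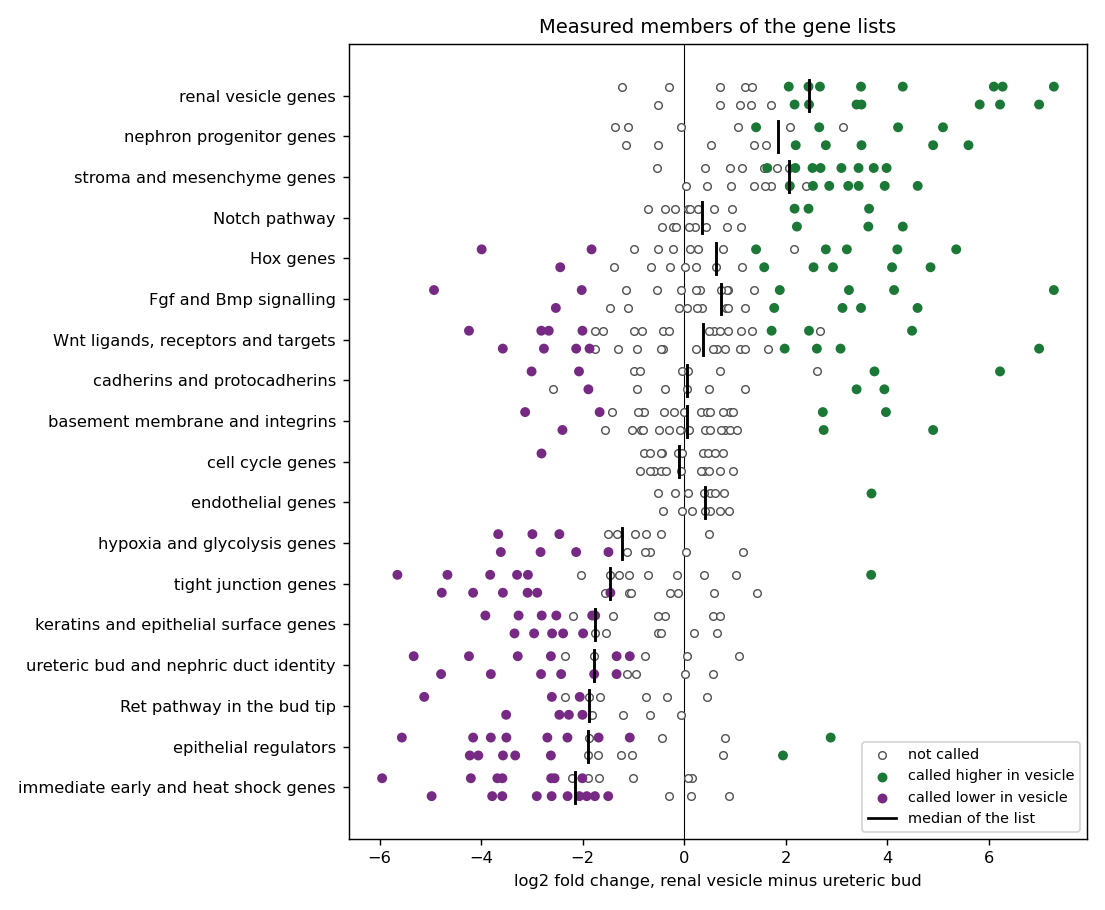
Difference between renal vesicle and ureteric bud (log2, x axis) of every measured member of 18 of the 28 gene lists. Filled points were called (green higher in the vesicle, purple lower), open points were not, and black bars are list medians, which run from 2.45 for vesicle genes to -2.14 for immediate early and heat shock genes.

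The 3 retinaldehyde dehydrogenases, which make retinoic acid, were distributed in opposite ways. Aldh1a3 had 5.34, 9.87, 6.66, 8.10 and 6.39 in the vesicle, against 14.52, 14.54, 13.40 and 14.11 in the bud (difference -6.87, SE 0.98, adjusted p = 8.23e-06), and was the largest fall of a named gene. Aldh1a1 had 5.24, 9.58, 10.48, 7.09 and 5.89 in the vesicle, against 13.98, 14.33, 14.06 and 14.16 in the bud (-6.48, SE 1.27, adjusted p = 0.00053). All vesicle arrays lay below all bud arrays for both, and without vesicle replicates 2 and 3 the differences were -7.53 for Aldh1a3 and -8.06 for Aldh1a1. Aldh1a2, the enzyme of mesenchyme and stroma, had 12.15, 12.16, 12.04, 12.22 and 11.51 in the vesicle, against 8.74, 8.69, 9.53 and 8.18 in the bud (3.23, SE 0.56, adjusted p = 0.00013).

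Signalling genes of the Wnt, Fgf and Bmp families differed in both directions. Of 40 Wnt genes 7 were higher and 8 lower, with a median of 0.36, and the lower ones numbered 5 without bud replicate 1 and 4 with either the collection term or the Gapdh covariate. The secreted inhibitors Frzb and Sfrp2 were higher by 4.49 and 2.46 (SE 0.76 and 0.42), as was Apcdd1, a membrane inhibitor, by 3.08 (SE 0.53). Wnt6, a ligand of the bud, was at 8.29 to 10.51 in the vesicle, against 11.26 to 12.56 in the bud (-2.82, SE 0.47, adjusted p = 8.15e-05). Rnf43, which removes Frizzled receptors and is itself a Wnt target, differed by -3.57 (SE 0.66), and the receptor Fzd6 by -2.76 (SE 0.51). Axin2, a general target of the canonical pathway, was at 10.34 to 11.06 in the vesicle and 12.45 to 12.64 in the bud, without overlap, but was not called (-1.75, SE 0.68, adjusted p = 0.0885). Apcdd1 lost its call with the collection term (2.52, adjusted p = 0.0618).

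Of 29 Fgf and Bmp genes 8 were higher and 3 lower, with a median of 0.73. Bmp4, a ligand of the tissue around the bud, had 13.21, 12.92, 12.08, 12.38 and 12.98 in the vesicle, against 8.79, 8.26, 8.59 and 8.69 in the bud (4.13, SE 0.49, adjusted p = 2.52e-07). Bmper, an extracellular modulator of Bmps, was at 12.07 to 13.31 in the vesicle, against 7.41 to 9.13 in the bud (4.6, SE 0.72, adjusted p = 3.12e-05). Sostdc1, a secreted Bmp and Wnt antagonist, ran the other way, with 6.31, 8.95, 5.45, 5.40 and 7.4 in the vesicle, against 11.89, 11.61, 11.12 and 11.90 in the bud (-4.93, SE 0.76, adjusted p = 2.8e-05). Bmp7, which both tissues make, was not called (-1.15, interval -2.13 to -0.16, adjusted p = 0.124). Of the Fgf receptors, Fgfr3, Fgfr1 and the decoy-like Fgfrl1 were higher by 3.24, 3.12 and 1.88 (SE 0.50, 0.43 and 0.31), and Fgfr4 was lower, at 8.56 to 11.47 in the vesicle, against 11.88 to 12.72 in the bud (-2.02, SE 0.53, adjusted p = 0.00934). Fgfr4 lost its call without vesicle replicates 2 and 3 (-1.08, adjusted p = 0.199) and with the Gapdh covariate (-1.28, adjusted p = 0.307). Fgfr1 lost its call with the collection term (adjusted p = 0.0598) and when probe sets that may bind several transcripts were left out (1.39, adjusted p = 0.0848).

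Matrix genes differed one by one, with 4 of 34 higher, 3 lower and a median of 0.05, where 3.87% of all genes were higher and 7.28% lower. Npnt, which encodes nephronectin, the bud's ligand for the integrin of Itga8, had 10.18, 12.37, 11.25, 11.10 and 11.82 in the vesicle, against 14.99, 14.13, 14.46 and 14.33 in the bud (-3.13, SE 0.59, adjusted p = 0.000352), opposite to Itga8 itself. The laminin chain Lama4 was at 13.28 to 14.60 in the vesicle, against 9.91 to 10.36 in the bud (3.97, SE 0.48, adjusted p = 3.93e-07). Nid2, a nidogen, and Frem1, of the Fraser complex, differed by 2.73 and 2.75. Col18a1, a basement membrane collagen, differed by -1.67 (SE 0.36), and the laminin chain Lama5 was not called (interval -3.33 to 0.22). Lama4 and Col18a1 lost their calls with other probe sets of these genes (0.75 and -0.43, adjusted p = 0.563 and 0.595), and Frem1 and Col18a1 with the collection term (1.96 and -1.69, adjusted p = 0.0979 and 0.0715).

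Hapln1, which links hyaluronan to proteoglycans, had 6.75, 9.0, 7.30, 8.32 and 6.53 in the vesicle, against 12.75, 12.04, 13.22 and 11.95 in the bud (-4.91, SE 0.77, adjusted p = 3.12e-05). Has2, a hyaluronan synthase, ran opposite, at 11.13 to 12.25 in the vesicle, against 8.30 to 9.88 in the bud (2.61, SE 0.75, adjusted p = 0.0175). Its call was lost without bud replicate 2 (2.34, adjusted p = 0.0675) or 4 (2.54, 0.051), with the collection term (3.22, 0.107) and with the Gapdh covariate (1.96, 0.268).

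Immediate early genes, which respond to stimulation within minutes, were lower in the vesicle. Of 26 measured immediate early and heat shock genes 17 were lower and none higher, with a median of -2.14. Leaving out 1 array gave 10 to 13 calls, with 11, 11 and 10 without bud replicates 1, 2 and 4, and leaving out vesicle replicates 2 and 3 or adding the Gapdh covariate gave 11. Fos had 6.41, 8.43, 7.84, 7.43 and 7.27 in the vesicle, against 13.45, 12.80, 13.88 and 13.58 in the bud (-5.95, SE 1.43, adjusted p = 0.00425). Egr2 and Egr1, zinc finger factors, differed by -4.98 and -3.58, Zfp36, which destabilizes messenger RNAs, by -4.20, Klf6 by -3.58, and the matricellular protein Ccn1 by -3.78. These genes also differed within mesenchyme by title. The mean level over the list was 9.28 to 10.07 in the vesicle arrays, against 11.61 to 12.10 in the bud arrays. In the 4 mesenchyme arrays whose titles name dissection or collagenase it was 11.41 to 12.33, against 9.61 to 10.27 in the other 4. With the collection term none of the 26 was called lower, and Fos, Egr1 and Egr2 had differences of 1.08, 0.95 and 0.80. Egr1 also lost its call without vesicle replicate 5 or bud replicate 1, 3 or 4 (-3.59 to -3.16, adjusted p = 0.0519 to 0.0687), and Ccn1 on another probe set (-2.77, adjusted p = 0.12).

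**Figure D5:**
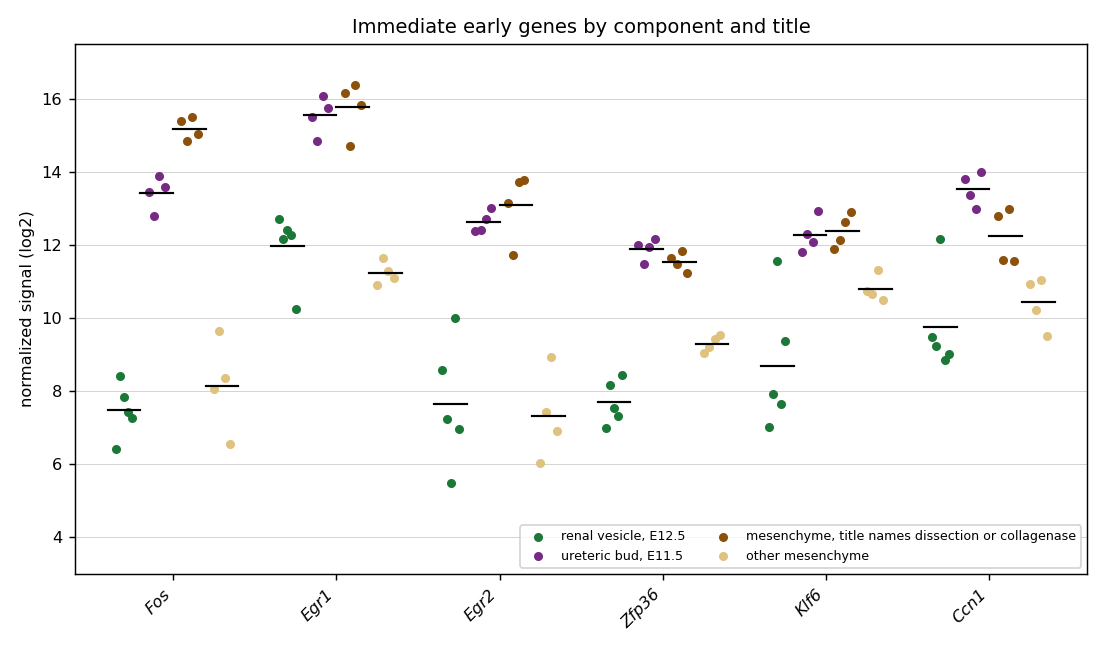
Normalized level (log2, y axis) of 6 immediate early genes in renal vesicle (n = 5), ureteric bud (n = 4) and metanephric mesenchyme arrays, the last split by whether the title names dissection or collagenase (n = 4) or not (n = 4). Bars are means. The bud arrays and the first mesenchyme set are high together, and the vesicle arrays and the second set are low together.

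Genes of hypoxia and glycolysis were lower in 7 of 18 cases and higher in none, with a median of -1.23. Pfkl, a phosphofructokinase, had 11.03, 11.01, 9.80, 10.94 and 9.48 in the vesicle, against 13.99, 14.32, 13.62 and 14.53 in the bud (-3.66, SE 0.43, adjusted p = 2.63e-07). Pdk1, Bnip3 and Aldoc, each induced by low oxygen, differed by -3.61, -2.99 and -2.83. Pgk1, another enzyme of glycolysis, had 0.03 on its brightest probe set, where both groups lay near 16, and -2.0 on the probe set with the largest variance, so it has no settled direction. Pdk1 was not called on another probe set (-1.78, adjusted p = 0.101) and Aldoc not with the collection term (adjusted p = 0.0599). Of 8 measured genes tied to developmental time 3 were lower and none higher, with a median of 0.005. With the collection term 1 was called lower, as was 1 without vesicle replicates 2 and 3. Lin28a, an RNA-binding protein of early embryos, had 5.26, 7.37, 5.39, 7.30 and 5.22 in the vesicle, against 9.06, 8.92, 9.51 and 8.61 in the bud (-2.92, SE 0.49, adjusted p = 7.94e-05). Trim71, which acts in the same pathway, differed by -3.02 (SE 0.76, adjusted p = 0.00696) and lost its call without vesicle replicates 2 and 3 (-2.39, adjusted p = 0.0694) and with the collection term (-1.25, adjusted p = 0.603). These groups are 1 day apart, and the part of the day was not tested.

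Of 22 measured genes of the cell cycle 1 was lower (Cdkn1a) and none higher, with a median of -0.10, where 11.2% of all genes were called. Mki67, a marker of cycling cells, was at 14.52 to 15.65 in the vesicle and 14.52 to 15.29 in the bud (0.40, interval -0.24 to 1.03). The 8 brightest uncalled genes among those with a difference under 0.25 in either direction, a limit that makes their differences small, were Eef1a1, Hspa8, Uqcrb, Tpt1, Rps3, Cct3, Rpl41 and Tuba1a, of protein synthesis, folding, respiration and the cytoskeleton, with differences of -0.10 to 0.04 at levels above 16. These lie near the upper end of the scale, and Rpl41 had 1.77 with another of its probe sets.

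Genes of later nephron segments are read against the same 11.2% of all genes. Of 20 proximal tubule genes none was higher and 1 lower, Lrp2, which encodes the endocytic receptor megalin. It had 6.12, 5.60, 6.08, 5.81 and 8.46 in the vesicle, against 10.33, 9.15, 10.57 and 9.52 in the bud (-3.48, SE 0.79, adjusted p = 0.00259), a call lost with the collection term (-3.40, adjusted p = 0.111). Of 13 genes of loop and distal tubule 2 were lower, Sostdc1 and Tfap2b. Of 14 podocyte genes 4 were higher, Wt1, Foxc2, Tcf21 and Lmx1b, of which the first is also a progenitor gene and Foxc2 and Tcf21 are also stromal, and 1 was lower, Kirrel3.

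The later pair, S-shaped body against ureteric tip at E15.5, shares no array with the pair above and has no title that names dissection. Here 252 genes (1.6%) were called, 124 higher in the S-shaped body (0.789%) and 128 lower (0.815%). Of the 608 genes higher in the vesicle, 53 were also called higher in the S-shaped body (8.72% of the 608 and 42.7% of the 124) and 1 lower. Of the 1144 genes lower in the vesicle, 71 were called lower in the S-shaped body (6.21% of the 1144 and 55.5% of the 128) and 2 higher. Differences had the same sign in 74.7% of the 608, where 56.9% of all genes were positive at E15.5, and in 67.0% of the 1144, where 43.1% of all genes were negative. Their median differences at E15.5 were 0.47 and -0.35.

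Ret, Calb1 and Wnt9b were called lower at E15.5 too. Ret had 6.6, 5.36, 6.82 and 6.65 in the S-shaped body, against 15, 14.98 and 14.42 in the tip (difference -8.44, adjusted p = 0.000997). Calb1 had 8.01, 8.82, 7.77 and 9.10, against 16.27, 16.38 and 15.65 (-7.67, adjusted p = 0.00374), and Wnt9b 7.16, 6.70, 7.02 and 6.42, against 11.47, 12.91 and 12.65 (-5.52, adjusted p = 3.61e-06). None of the 3 genes overlapped, and no one of the 4 S-shaped body arrays had the raised Ret or Calb1 of vesicle replicates 2 and 3. Cldn8 and Hoxd3 differed by -6.14 and -2.56 in the same direction as at the earlier days. In the other direction Cldn5, Cyp1b1, Bmp4, Wt1, Hey1, Cdh4 and Foxc2 were higher in the S-shaped body by 4.92, 3.32, 3.22, 3.21, 3.01, 2.75 and 2.72. Of 15 endothelial genes, a list that includes Cldn5, 6 were called higher in the S-shaped body and none lower, with a median of 2.46. Their summed signal was 33588 to 97176 in the S-shaped body and 6314 to 10776 in the tip. Podocyte genes, a list that includes Wt1 and Foxc2, had a summed signal of 63609 to 412888 in the S-shaped body (median 81923). In the tip it was 25565 to 44754. Summed stromal signal was 110101 to 414692 in the S-shaped body (median 143824), against 66742 to 238084 in the tip. The S-shaped body arrays were thus unlike each other in these lists. The part of endothelial, podocyte and stromal cells in this pair was not tested. The Hey1 call was lost without tip replicate 2 (2.93, adjusted p = 0.0523) and that of Foxc2 without tip replicate 1 (2.32, adjusted p = 0.079).

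The difference between the early and the E15.5 difference was tested for each gene, and 216 (1.38%) were called, 88 positive (0.56%) and 128 negative (0.815%). Eya1 gave the largest positive value among named genes. It had 7.73, 9.53, 8.70 and 7.88 in the S-shaped body, against 12.30, 12.44 and 12.21 in the tip (-3.86, adjusted p = 0.0549), opposite to the early pair, and the difference of the differences was 8.07 (SE 1.42, adjusted p = 0.00187). Summed signal of nephron progenitor genes, a list that includes Eya1 and Crym, was 40594 to 46751 in the tip arrays. It was 29605 to 34617 in the S-shaped body, 15966 to 17572 in the bud and 44582 to 64397 in the vesicle. The part of progenitor cells in the tip arrays was not tested. Bmp2 had 10.94, 11.48, 10.07 and 10.69 in the S-shaped body, against 11.44, 10.84 and 10.22 in the tip, so the groups overlapped at E15.5 (-0.04), and the difference of the differences was 7.32 (SE 0.95, adjusted p = 3.16e-05). Wnt4 had 12.42, 13.89, 9.16 and 13.53 in the S-shaped body, against 10.54, 11.63 and 12.08 in the tip, with replicate 3 of the S-shaped body below all tip arrays (6.16, SE 1.22, adjusted p = 0.00682).

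Several mesenchymal genes that were higher in the vesicle differed by less in the later pair. Sall1 had 12.67, 13.02, 12.44 and 13.14 in the S-shaped body, against 13, 12.43 and 11.57 in the tip, Itga8 11.80, 12.24, 14.01 and 12.51, against 12.58, 12.18 and 12.54, and Hoxa9 14.75, 14.82, 14.60 and 14.80, against 14.59, 13.91 and 14.05. None of these differences was called (0.48, 0.21 and 0.56). Every tip array lay above every bud array for these genes, and the summed stromal signal was 66742 to 238084 in the tip arrays, against 33343 to 45421 in the bud arrays. The differences of the differences were 5.12, 4.70 and 4.80 (adjusted p = 0.00187, 0.000225 and 7.9e-08), and those of Hoxd10 and Meis2 were 4.5 and 3.63. Crym, a progenitor gene that differed by 2.66 in the early pair and by -2.84 in the later one, had 5.50 (adjusted p = 0.00661), and Has2 6.10 (adjusted p = 0.00314). The early call of Crym was lost without vesicle replicates 2 and 3 (2.43, adjusted p = 0.0586), with the collection term (0.238) and with the covariate (0.15). Wnt4 and Crym were not called for the difference of the differences with the collection term (adjusted p = 0.0888 and 0.0752), nor Meis2 with another probe set (4.15, adjusted p = 0.177).

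Negative values of this test included genes whose mean was higher in the S-shaped body than in the vesicle. Hapln1 had 7.08, 9.40, 12.01 and 11.04 in the S-shaped body, against 8.88, 7.54 and 6.71 in the tip, and the difference of the differences was -7.08 (SE 1.16, adjusted p = 0.00113). Lrp2 had 10.17, 8.95, 13.97 and 10.03, against 10.21, 7.13 and 8.21 (-5.74, adjusted p = 0.0106), and Cltrn, a collectrin of proximal tubule, 11.47, 10.81, 12.75 and 11.78, against 9.91, 6.95 and 5.21 (-5.38, adjusted p = 0.0106). Replicate 3 of the S-shaped body was the highest for all 3. In the early pair Cltrn was at 5.76 to 7.38 in the vesicle and 7.33 to 7.89 in the bud and was not called. Sostdc1 and Dcdc2a, lower in the vesicle, did not separate the later pair (0.34 and -0.96), with differences of the differences of -5.27 and -4.80 (adjusted p = 0.0142 and 0.0012). Zfp36 and Lin28a gave -4.29 and -3.42. The calls of Lrp2 and Cltrn were lost with the collection term (adjusted p = 0.0796 and 0.0705), that of Lrp2 also without tip replicate 2 (-5.05, adjusted p = 0.052), that of Cltrn without tip replicate 3 (-4.30, adjusted p = 0.059), and that of Sostdc1 without tip replicate 2 (-5.05, adjusted p = 0.0513) and with the Gapdh covariate (-4.46, adjusted p = 0.0928). Zfp36 and Lin28a were not called with the collection term (adjusted p = 0.36 and 0.154).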

How the data were processed

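Transcript levels were measured on 37 arrays. The deposited values are signal intensity on a linear scale, made by the authors with GCOS of Affymetrix per the submitters' processing notes, and the 2% trimmed mean of every array was 1500. No detection calls were used, and no aligner or genome build applies. An offset of 34.62 (20th percentile) was added before log2, which makes differences of dim genes smaller. Arrays were quantile normalized. Probe sets of a single gene above the pooled median (7.89) in at least 2 arrays were kept, and the brightest of each gene was used. Differences were estimated in limma 3.58.1 (R 4.3.3) from a linear model of all 37 arrays that gave each component its own mean (28 residual degrees of freedom), with Benjamini-Hochberg adjustment over 15709 genes. It was tested on simulated data in which the noise of a gene was normal and equal in all components. Unequal spread of the groups and differences in collection were not part of that simulation. The number of arrays limits the precision.

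Members and 28 gene lists (503 of 550 symbols measured) were chosen with earlier results of these data known. Named genes are list members, the 15 largest non-overlapping calls each way, the 5 largest in each direction of the difference of differences, and the 8 brightest uncalled genes with differences under 0.25. Descriptive symbols were required and not all are described. Alternatives were other offsets, filters, scalings, probe sets and weights, only the arrays compared, date or collection method from the titles, leaving out arrays and, chosen after seeing the data, leaving out vesicle replicates 2 and 3 together and the Gapdh ratio.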

Additional observations from a re-analysis of the deposited data

Results flagged for a closer look

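In 26 of 343 sets of arrays tested, 1 array stood apart from the others of its group by Dixon's criterion at the 95% level, which chance alone meets in about 1 of 20 sets. Vesicle replicate 2 stood apart high for Vsnl1 (10.08, others up to 5.85) and Rab25 (9.11, others up to 6.6), and low for Fgfrl1 (13.99) and Lama4 (13.28). Vesicle replicate 3 stood apart high for Ccn1 (12.17, others up to 9.50) and low for Ccnd1 (14.87) and Bmp7 (11.52). Vesicle replicate 5 was high for Grhl1 (11.92) and Lrp2 (8.46) and low for Aldh1a2 (11.51) and Egr1 (10.26). Vesicle replicate 1 was low for Tfap2b (5.71, others from 9.03) and Meis2 (12.35), and replicate 4 was high for Hoxa9 (15.80).

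Bud replicate 3, the one whose title names collagenase, was high for Pdgfra (10.34, others up to 8.57), Hoxd1 (11.69) and Trim71 (12.75) and low for Krt18 (12.80). Bud replicate 4 was low for Spry2 (10.81) and high for Rpl41 (16.67), and bud replicate 1 was high for Cdh2 (10.02). In other components, mesenchyme replicate 8 was low for Itga8 (11.86) and high for Foxd1 (14.95), S-shaped body replicate 3 was low for Hey1 (11.79) and high for Meis2 (14.04), and S-shaped body replicate 2 was low for Ret (5.36).

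For 29 genes with values above, the vesicle minus bud difference itself differed from the S-shaped body minus ureteric tip difference in limma (adjusted p under 0.05 over all genes). Besides those already described, Fat4 had 3.94 in the early and -0.81 in the later pair, a difference of 4.76 (adjusted p = 0.00802), and Bmper 4.6 and -0.13, a difference of 4.73 (adjusted p = 0.0195). Cdh11 had 3.75 and 0.02 (3.73), Hoxa10 4.09 and 0.67 (3.42), Meis1 3.44 and 0.24 (3.2), Hoxd11 2.79 and 0.44 (2.35), Fgfrl1 1.88 and -0.10 (1.98) and Tmem100 2.67 and -1.0 (3.67). Nr2f1 and Cyp1b1 were higher in the nephron epithelium of both pairs, by 5.17 and 2.20 (2.97) and by 6.21 and 3.32 (2.89). Ccn1 had -3.78 and 0.60 (-4.38) and Col18a1 -1.67 and 0.43 (-2.09). The differences described above were 7.32 for Bmp2, 6.16 for Wnt4, 5.12 for Sall1, 4.70 for Itga8, 8.07 for Eya1, 5.50 for Crym, 4.80 for Hoxa9, 4.5 for Hoxd10, 3.63 for Meis2, 6.10 for Has2, -4.80 for Dcdc2a, -5.27 for Sostdc1, -4.29 for Zfp36, -3.42 for Lin28a, -7.08 for Hapln1, -5.74 for Lrp2 and -5.38 for Cltrn. Of these 29 calls 10 were kept under every alternative that gave a value, and 19 were lost under at least 1. Hoxd11 lost its call without vesicle replicate 3 or 4 or any one of the bud, S-shaped body or tip arrays (adjusted p = 0.0514 to 0.112), and Nr2f1 without vesicle replicate 3, bud replicate 2 or 4, S-shaped body replicate 1, 2 or 4 or any one tip array (0.0571 to 0.125). Cyp1b1 lost it without vesicle replicate 3 or 5, bud replicate 1, 2 or 4, S-shaped body replicate 3 or 4 or any one tip array (0.0567 to 0.104), and Col18a1 without vesicle replicate 1, 2 or 4, bud replicate 1, 2 or 4, S-shaped body replicate 1 or 3 or tip replicate 1 or 2 (0.0547 to 0.144). Meis1 lost it without bud replicate 1 or 4, S-shaped body replicate 1 or tip replicate 1 or 3 (0.059 to 0.0806), Cdh11 without bud replicate 2 or 4, S-shaped body replicate 1 or tip replicate 1 or 2 (0.0526 to 0.109), and Fgfrl1 without bud replicate 2 or 4 or tip replicate 2 or 3 (0.0517 to 0.0806). Bmper lost it without S-shaped body replicate 3 or tip replicate 1 (0.0523 and 0.097) and Ccn1 without tip replicate 2 (0.07). With the collection term these 9 genes and Tmem100 were not called (adjusted p = 0.058 to 0.377), and with the Gapdh covariate 7 of them, all but Cdh11, Ccn1 and Tmem100, were not (0.0645 to 0.193). Without vesicle replicates 2 and 3 Hoxd11, Nr2f1, Cyp1b1, Cdh11 and Col18a1 were not called (0.0688 to 0.085), nor were Hoxa10, Hoxd11, Col18a1 and Ccn1 on other probe sets (0.0513 to 0.675). Further losses were those of Hoxd11 and Cyp1b1 with the larger offset (0.0592 and 0.0664), of Hoxd11 without a filter (0.0518), of Fgfrl1 with only the arrays compared (0.0521) and of Col18a1 with the arrays as scaled by the authors (0.0599). Day and the way in which tissue was obtained cannot be told apart in this contrast.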

How the results depend on the processing

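The early comparison had 1752 calls, and 22 alternatives were tried for it. Of 117 called genes described above, 69 kept their call in every alternative that gave a value. With the collection term 482 genes were called (172 higher, 310 lower, 406 shared with the 1752), with the Gapdh covariate 856 (339 and 517, 758 shared), and with array weights 2763. Leaving out 1 array at a time gave 1191 to 1830 calls, and the other alternatives 1503 to 1991. S-shaped body minus tip had 252 calls, against 1235 with array weights, 120 with only the arrays compared and 83 to 296 with 1 array left out, lowest without a tip array (107, 83 and 141). With the arrays as scaled by the authors its split was 78 higher and 153 lower, against 124 and 128. The difference of differences had 216 calls, against 1425 with array weights, 330 with only the arrays compared, 54 with the collection term, 91 with the Gapdh covariate and 92 to 258 with 1 array left out. It moved by over 1.5 times without any one bud array (113 to 131), any one tip array (92 to 122) or S-shaped body replicate 1 (130). Its split as scaled by the authors was 130 positive and 86 negative, against 88 and 128. With the collection term Fos (1.08), Egr1 (0.95), Egr2 (0.80) and C1qa (-0.55) reversed. Pgk1 reversed with the probe set of largest variance (-2.0) and without shared probe sets (-1.08), and Rpl41 had 1.77 in both. The collection term has its size from 8 mesenchyme arrays alone, and beyond these values the cause was not tested. The title date as a random block had a correlation of 0.06 and gave 1702 calls. No paired analysis was possible because vesicle and bud samples share no replicate pairing in the labels. Few arrays and no detection calls limit what can be said of dim genes.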
